A study of Danio rerio with 6 samples.

Results

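Heat shock proteins and molecular chaperones were followed across 6 arrays of zebrafish embryonic eye RNA, 3 from embryos exposed to retinoic acid (RA) and 3 from their DMSO controls. The members were all genes whose symbol in the probe annotation begins with hsp, dnaj, cct2 to cct8, tcp1, bag1 to bag6, hsf, pdia, calr, canx, fkbp, ahsa or stip1. This gave 88 genes, measured by 101 probe sets, of 8793 genes that the array names by a single symbol. Each gene is given by its brightest probe set. By family they were 3 small heat shock proteins, 10 HSP70 genes, 3 HSP90 genes, 12 chaperones of the endoplasmic reticulum (ER), 2 genes of the mitochondrial HSP60 and HSP10 chamber, 8 subunits of the cytosolic chaperonin CCT, 28 DNAJ genes, 10 FKBP genes, 4 BAG genes, 3 heat shock factors and 3 other cochaperones. The remaining 2, tcp11l2 and hsf2bp, matched by spelling only and are not known as chaperones.

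Chaperones bind unfolded or partly folded proteins and keep them from aggregating. Small heat shock proteins hold such clients without ATP, and the alpha crystallins of the lens belong to the same family. HSP70 proteins bind and release short stretches of clients in a cycle that DNAJ proteins start and nucleotide exchange factors (HSP110, BAG and GRPE proteins) reset. HSP90 completes the folding of kinases and steroid receptors, CCT folds actin and tubulin, and FKBP proteins are prolyl isomerases, some of which dock on HSP90. When unfolded protein accumulates in the cytosol, heat shock factor 1 switches on a shared set of these genes, while unfolded protein in the ER acts on the ER set through a separate response.

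All 6 pools were eyes of the zebrafish line SciH. The embryos were snap-frozen at 75 hours post fertilization (hpf), and the eyes were dissected after frozen storage in methanol. In each of 3 clutches the embryos were divided between 0.3 μM all-trans RA and DMSO alone, both in 0.1% DMSO, from 48 to 75 hpf. The sample titles carry the numbers 1, 3 and 4 without naming a clutch. Pools with the same number were taken here as pools of one clutch. Each pool held 64 eyes, so a value is an average over many embryos and over all cell types of the eye. The question was which genes of the eye respond to added RA while photoreceptors differentiate.

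The signals are the deposited linear array intensities, in arbitrary units, scaled by array. All 11 measured retina markers were above the background signal of 13.19, which was the highest signal among 87 control probe sets with no target, and the lens markers crybb1, cryba4 and bfsp2 were above it in every pool. No retina marker passed the test described below. Of these, rlbp1a alone had an unadjusted limma p under 0.05, with all RA pools below all DMSO pools (means 714.4 and 973.4). The summed retina signal was 8357 to 8685 with DMSO and 8008 to 8336 with RA, and the median log2 difference of the list was 0.04. Of the other markers, none of the skin and cornea, erythroid, pigment epithelium or leukocyte lists passed. Among them, 1 erythroid marker had an unadjusted limma p under 0.05. The summed erythroid signal was 2051 to 2990 with DMSO and 1518 to 1916 with RA. Between 67.2% and 70.0% of probe sets were above background. The DMSO pool of clutch 1 stood apart in the ratio of 3′ to 5′ signal of control genes. In that pool the ratio was 64.5 for the acta1 control and 2.58 for gapdh. The paper reports a Bioanalyzer check of RNA quality and gives no values by pool. The other 5 pools had 5.30 to 20.2 and 1.32 to 1.75. The acta1 ratio also separated by treatment, with the lowest DMSO pool at 12.04 (clutch 4) and the highest RA pool at 11.67 (clutch 3). The gapdh ratio overlapped between treatments. The part of this acta1 separation in the differences between RA and DMSO was not tested. Of the 88 members, 75 were above background in all 6 pools, 4 in some and 9 in none.

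hspb1, the small heat shock protein known in mammals as HSP27, rose with RA and was the only member past the threshold of a 10% false discovery rate (limma, two-sided, adjusted over all 15555 probe sets). The DMSO pools read 40.8, 66.0 and 64.4 (given here and throughout in the order clutch 1, 3, 4), and the RA pools read 174.0, 167.9 and 171.8. Every RA pool lay far above every DMSO pool, and the RA pools were nearly equal. The mean was 57.1 ± 14.1 with DMSO and 171.2 ± 3.08 with RA (SD, n = 3), a fold of 3.07 with a 95% confidence interval of 2.08 to 4.52 (log2 difference 1.62 ± 0.23 SE, limma adjusted p = 0.0584). Within clutches the fold was 4.26, 2.54 and 2.67. In pools of whole eyes, more RNA per cell and more cells of an expressing type cannot be told apart. hspb1 was also on the study's own list of RA-responsive genes, which was chosen on these same arrays, so its direction here is not independent evidence. With clutch as a block the difference was the same and the limma adjusted p was 0.201. Leaving out single arrays kept the log2 difference between 1.39 and 1.74, and the call held only without the DMSO pool of clutch 1 (limma adjusted p = 0.0485), while the other 5 fits gave 0.132 to 0.245.

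The share of members past the threshold, 1 of 88 or 1.14%, was close to the 0.967% of all 8793 genes. Without adjustment, 3 members had a limma p under 0.05 (3.41%), hspb1 and the lower fkbp9 and dnajc21, against 9.66% of all genes. RA pools all above DMSO pools were seen for 1 member (1.14%), against 7.18% of all genes. RA pools all below DMSO pools were seen for 6 members (6.82%), against 10% of all genes. Within clutches, 12 members (13.6%) were higher with RA in all 3 pairs and 20 (22.7%) were lower in all 3, against 15.6% and 20.5% of all genes. The median log2 difference over the members was -0.08, with clutch medians of -0.08, -0.02 and -0.12, and the median over all genes was -0.02. Most estimates were small, and their precision was moderate. The 95% interval lay within a 2-fold difference either way for 67 of the 88 members and within a 1.5-fold difference for 24.

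**Figure D1:**
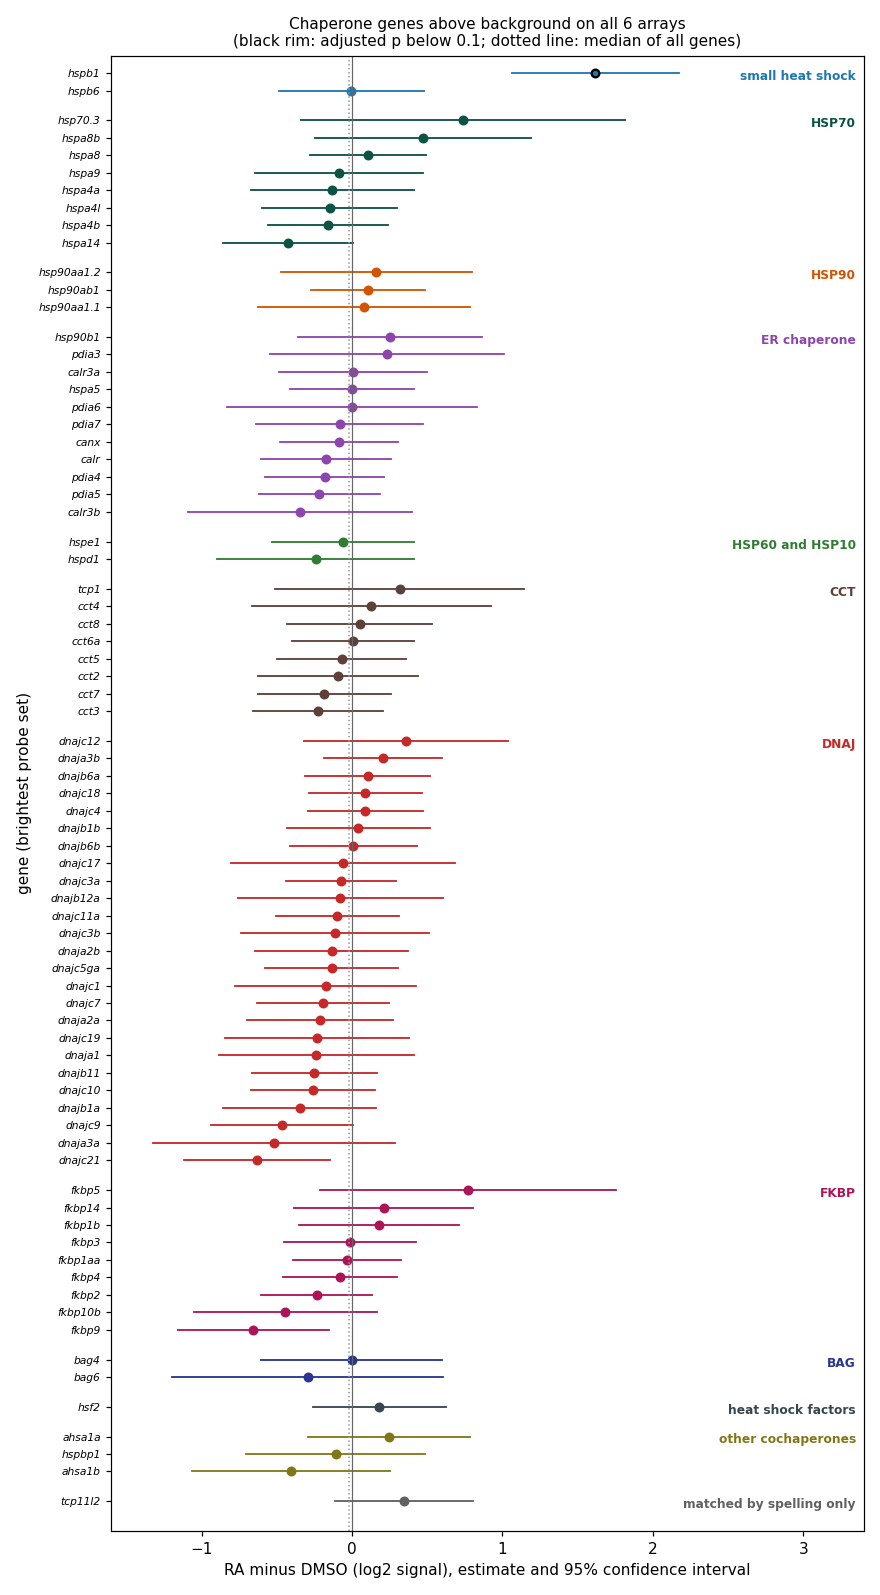
Difference between RA and DMSO pools, on the log2 signal scale, for the 75 members above background in all 6 pools, grouped by family. Points are limma estimates from 3 against 3 pools, lines are 95% confidence intervals, and the dotted line is the median of all genes at -0.02. hspb1 alone has a black rim (adjusted p = 0.0584), and the intervals of all other members except fkbp9 and dnajc21 include 0.

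Of the other small heat shock proteins matched by symbol, neither passed the threshold. hspb6, known in mammals as HSP20, had signals of 36.6, 40.0 and 31.0 with DMSO and 38.8, 29.4 and 39.5 with RA. These pools overlapped fully, and the fold of 0.997 had an interval of 0.713 to 1.39 (limma adjusted p = 1.0). hspb8, which works with BAG3 in mammals, was above background only in the RA pool of clutch 3, at 17.1, and between 8.24 and 12.9 in the other 5 pools. The median over the 3 genes was 0.02.

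The alpha crystallins of the lens, small heat shock proteins whose symbols the rule did not take, were looked at beside hspb1. cryaa, a structural protein and chaperone of lens fibre cells, rose from 296.4, 263.9 and 356.2 with DMSO to 682.7, 638.2 and 794.5 with RA. All RA pools were above all DMSO pools, by 2.32-fold on average (95% interval 1.68 to 3.19, limma adjusted p = 0.0816). Like hspb1 it was on the study's list from these arrays, and its adjusted p was 0.175 with clutch as a block and 0.132 to 0.264 without single arrays. cryaba was at or below 3.58 in every pool, under background, and cryabb was not analysed here. Of the 5 lens markers measured, cryaa was the only one past the threshold and gja8b was below background in all pools. The summed signal of the lens list ranged from 7254 to 9723 with DMSO and from 8042 to 9308 with RA. crybb1, a beta crystallin of lens fibres, was 4350, 3224 and 3575 with DMSO and 3478, 3523 and 4121 with RA. The summed signal of these 5 genes, with cryaa among them, overlapped between treatments, and the pools of cryaa did not. The brightest of them were crybb1 and cryba4, with DMSO means of 3717 and 3089 beside 305.5 for cryaa, so the sum mainly reads those genes. Summed signals of the retina, muscle and erythroid lists did not overlap, and were lower in every RA pool. Another lens crystallin, crygm4, was reported by the study as higher with RA on these arrays, and it was not on this lens list.

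The HSP70 family held no member past the threshold and none with an unadjusted limma p under 0.05, and its median log2 difference was -0.09. hsp70.3, a stress-inducible cytosolic HSP70 gene, had the largest estimate of the family. Its signal was 518.5, 266.7 and 278.3 with DMSO and 1004, 382.0 and 463.9 with RA, or 354.5 ± 142.2 against 616.5 ± 337.7 (SD, n = 3). Each RA pool was above the DMSO pool of its own clutch, by 1.94-, 1.43- and 1.67-fold. Both pools of clutch 1 were the highest of their treatment. The groups overlapped because the DMSO pool of clutch 1 was above the RA pools of clutches 3 and 4. The log2 difference of 0.74 became 0.32 without the RA pool of clutch 1 and 1.05 without the DMSO pool of clutch 1. The fold of 1.67 had an interval of 0.789 to 3.51 (limma adjusted p = 0.758, and 0.367 with clutch as a block). The hsp70.3 probe set carries a suffix that marks possible cross-hybridization, and hsp70.3 lies beside hsp70.2 in the reference annotation, so near-identical copies may share its signal. A separate probe set annotated to hsp70.1, hsp70l and hsp70.3 together, which is no member because it has 3 symbols, was at 533.6, 362.2 and 450.0 with DMSO and at 1159, 560.5 and 751.9 with RA. There every RA pool was above every DMSO pool (fold 1.78, interval 1.06 to 2.99, limma adjusted p = 0.519). Neither probe set passed the threshold.

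The constitutive HSP70, hspa8, was measured more tightly. It was at 1416, 1627 and 1706 with DMSO and at 1652, 1758 and 1688 with RA, a fold of 1.08 with an interval of 0.825 to 1.41. A change of 1.5-fold either way lay outside this interval. Its duplicate hspa8b had a log2 difference of 0.47 ± 0.30 (SE), set mostly by clutch 3, where the signal was 13.9 with DMSO and 31.5 with RA. hspa1b and hspa12a were above background in some pools only, with log2 differences of 0.36 ± 0.29 and -0.10 ± 0.38 (SE). hspa9, the mitochondrial HSP70, differed by -0.09 ± 0.23 (SE). The HSP110 genes hspa4a, hspa4b and hspa4l, whose products reset the HSP70 cycle, lay together at -0.13, -0.16 and -0.15, each with an interval that included 0. hspa14, a ribosome-associated HSP70 in human cells, was at 108.8, 116.3 and 146.5 with DMSO and at 91.2, 93.7 and 89.6 with RA. Its RA pools were all below its DMSO pools, by 1.34-fold on average (limma adjusted p = 0.573).

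**Figure D2:**
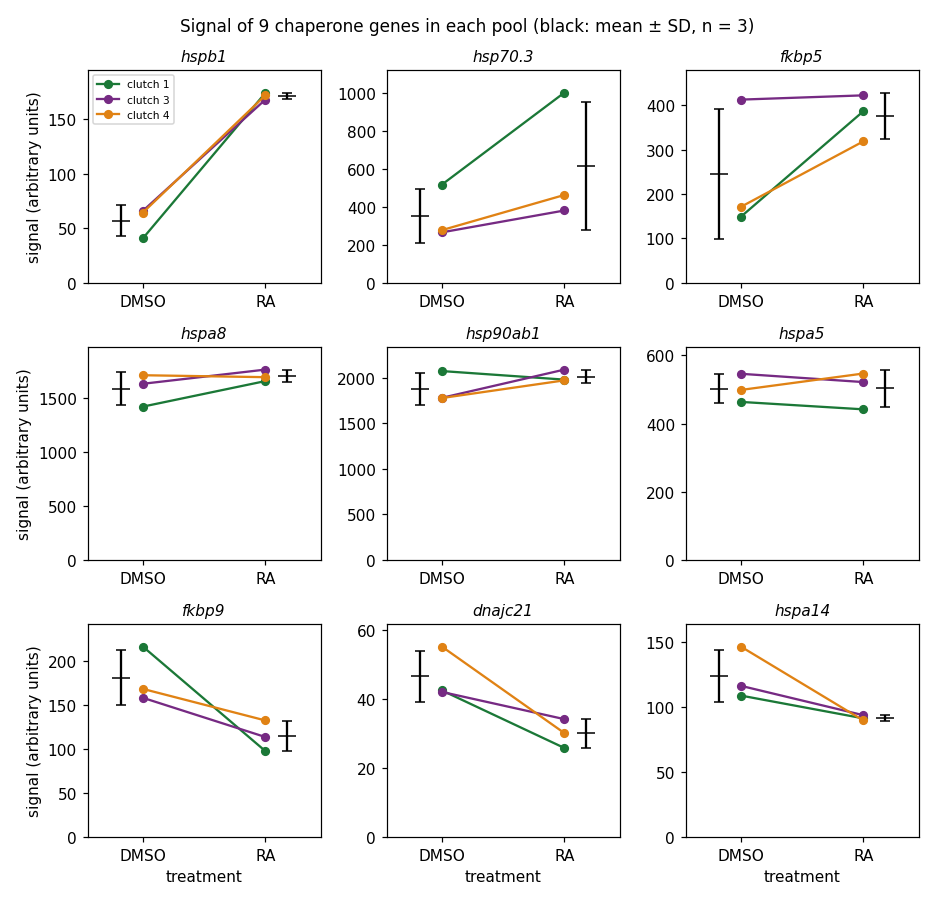
Signal (arbitrary units, linear axis from 0) of 9 members in each DMSO and RA pool, with lines joining the pools of one clutch and black marks for the mean ± SD of 3 pools. In hspb1 the 3 RA pools sit between 167.9 and 174.0, above all DMSO pools, while hspa8, hsp90ab1 and hspa5 overlap and fkbp9, dnajc21 and hspa14 lie lower in every RA pool.

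The HSP90 genes did not pass the threshold, and none had an unadjusted limma p under 0.05. hsp90ab1, the constitutive form, was at 2072, 1778 and 1776 with DMSO and at 1978, 2088 and 1970 with RA, a fold of 1.08 with an interval of 0.827 to 1.40. hsp90aa1.2 was at 1197, 692.2 and 706.3 with DMSO and at 854.0, 903.9 and 1057 with RA (log2 difference 0.16 ± 0.26 SE). hsp90aa1.1, which in zebrafish folds muscle myosin, was at 29.8, 20.5 and 14.0 with DMSO and at 21.4, 22.5 and 20.8 with RA (log2 difference 0.08 ± 0.29 SE). In these brightest probe sets of both hsp90aa1 genes the DMSO pool of clutch 1 was the highest, so the sign differed by clutch. The family median was -0.48 in clutch 1, 0.23 in clutch 3 and 0.57 in clutch 4. With 3 genes, the medians of clutches 1 and 4 were the values of hsp90aa1.1, whose DMSO pool of clutch 4 was near background. Within clutches, hsp90aa1.2 differed by -0.486, 0.385 and 0.582 and hsp90ab1 by -0.066, 0.232 and 0.149. A second probe set of hsp90aa1.2 was higher with RA in all 3 clutches. It was at 280.9, 240.6 and 447.8 with DMSO and at 296.3, 323.6 and 621.8 with RA (log2 difference 0.33 ± 0.37 SE). The genes hsp90aa1.1 and hsp90aa1.2 are direct neighbours in the reference annotation. A probe set annotated to both was at 228.0, 213.2 and 390.1 with DMSO and at 271.4, 290.8 and 562.5 with RA, higher with RA in all 3 clutches, with a fold of 1.33 and an interval of 0.707 to 2.50. Muscle was represented by 12 measured markers, all above background in at least 1 pool. pvalb2 was the only one past the threshold, at 626.7, 478.0 and 412.6 with DMSO and 102.7, 82.2 and 126.9 with RA (limma adjusted p = 0.022), and the summed muscle signal was 3582 to 4704 with DMSO and 2941 to 3531 with RA. The list went both ways, with a median log2 difference of 0.12. An unadjusted limma p under 0.05 was seen for 4 of the 12 (9.66% of all genes). RA pools lay all above DMSO pools for 3 muscle markers (7.18% of all genes). These were tnnt3a (fold 2.08, limma adjusted p = 0.217), myog (fold 2.56, limma adjusted p = 0.208) and ckmb (fold 1.15, limma adjusted p = 0.855). For pvalb2 and tnni2a.4 the RA pools lay all below (10% of all genes). The study, by its own test on these same arrays, reported myog as higher with RA. The part of these muscle differences in the hsp90aa1.1 signal was not tested.

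Of the 12 ER chaperones none passed the threshold, and none had an unadjusted limma p under 0.05. The family median was -0.04. hspa5, the ER HSP70 known as BiP and the usual marker of ER stress, was at 463.5, 546.0 and 498.6 with DMSO and at 441.7, 521.7 and 546.8 with RA. Its means, 502.7 ± 41.4 and 503.4 ± 54.9 (SD, n = 3), were nearly equal, and the interval of the fold was 0.751 to 1.33. hsp90b1, the ER HSP90 known as GRP94, was higher in each RA pool than in the DMSO pool of the same clutch, with a log2 difference of 0.25 ± 0.25 (SE). The lectin chaperones that bind newly made glycoproteins differed little. canx was at 1482, 1195 and 1353 with DMSO and at 1223, 1314 and 1251 with RA, calr differed by -0.17 ± 0.18 (SE, log2), and calr3a by 0.01 ± 0.20. calr3b, at -0.35 ± 0.31, rested on the DMSO pool of clutch 4, which read 36.6 against 17.1 to 20.9 in the other 5 pools, and was -0.02 without it. The disulfide isomerases pdia3, pdia4, pdia5, pdia6 and pdia7 ranged from -0.22 to 0.23. pdia4 and pdia5 were lower with RA in all 3 clutches, and pdia3 and pdia6 were lowest in the DMSO pool of clutch 1, at 205.5 and 20.1. pdia2, a pancreatic isomerase in mammals, was at 5.83 or less in every pool, below background.

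**Figure D3:**
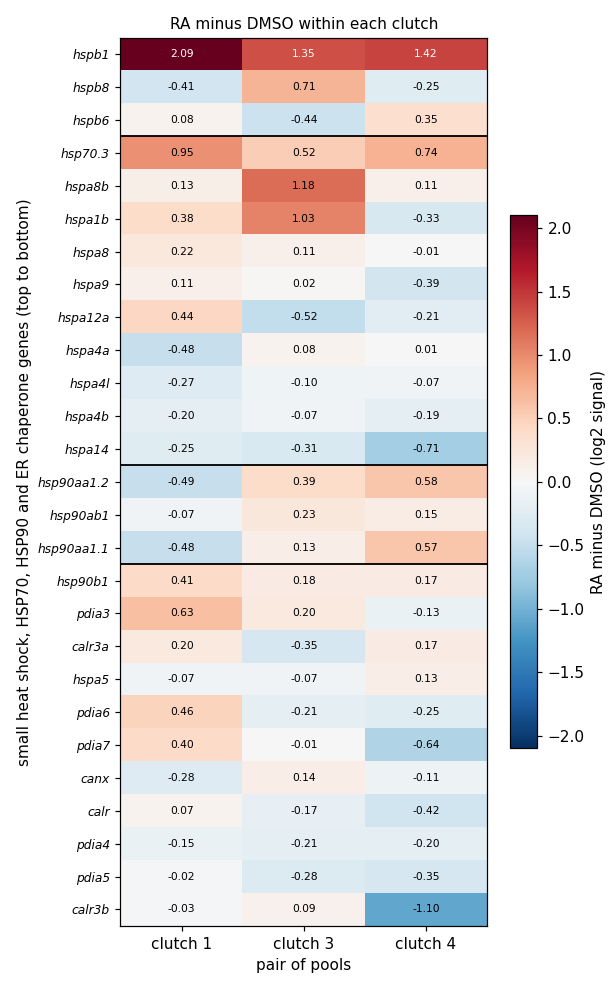
RA minus DMSO on the log2 signal scale within each clutch, for the 27 small heat shock, HSP70, HSP90 and ER chaperone genes above background in at least 1 pool. Red is higher and blue lower with RA. hspb1 (2.09, 1.35 and 1.42) and hsp70.3 (0.95, 0.52 and 0.74) are above 0.5 in every clutch. The brightest probe sets of the hsp90aa1 genes, shown here, change sign between clutch 1 and the others.

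The chaperonin CCT, a ring of related subunits that are all needed together, had all 8 measured genes above background in every pool and none past the threshold or with an unadjusted limma p under 0.05. Their log2 differences ran from -0.23 for cct3 to 0.32 for tcp1, with a median of -0.03. cct5 was at 1340, 1189 and 1357 with DMSO and at 1098, 1189 and 1431 with RA, a fully overlapping range. tcp1, the first CCT subunit, was at 258.4, 524.9 and 595.8 with DMSO and at 510.0, 612.7 and 498.5 with RA. Its lowest value was in the DMSO pool of clutch 1, and without that array its log2 difference was -0.06. That pool also had the high 3′ to 5′ ratios, and a link between these and the tcp1 signal was not tested. Other members, such as ahsa1b and bag6, were highest in that pool. The mitochondrial partners hspd1 and hspe1 differed by -0.24 ± 0.27 and -0.06 ± 0.20 (SE, log2).

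DNAJ genes, the partners that bring clients to HSP70, were the largest family. None of the 28 passed the threshold and 1 had an unadjusted limma p under 0.05 (9.66% of all genes did). The median log2 difference was -0.13, with clutch medians of -0.16, -0.09 and -0.15, and 21 of the 28 estimates were below 0, beside 4717 of 8793 over all genes. dnajc21, a factor of ribosome assembly in human cells, had the lowest estimate: 42.5, 42.0 and 55.2 with DMSO and 25.8, 34.1 and 30.1 with RA. The groups did not overlap, and DMSO was above RA by 1.55-fold (95% interval of the ratio of RA to DMSO 0.462 to 0.902, limma adjusted p = 0.419). The groups of dnajc9, a histone chaperone in human cells, did not overlap either, at 247.4, 199.1 and 267.5 with DMSO against 149.5, 175.9 and 190.3 with RA (limma adjusted p = 0.572). dnajc10, an ER reductase in mammals, was the third such member (log2 difference -0.26 ± 0.17 SE). These were 3 of the 28 DNAJ genes, and 10% of all genes had every RA pool below every DMSO pool. At the other end dnajc12 was at 16.8, 32.5 and 22.5 with DMSO and at 27.0, 34.8 and 27.3 with RA. The HSP70 partners dnajb1a and dnajb1b, whose mammalian counterpart rises after heat shock, differed by -0.35 ± 0.21 and 0.04 ± 0.20 (SE, log2). dnaja2b, with the brightest probe set of the family, was at 1528, 1027 and 1293 with DMSO and at 1088, 1070 and 1318 with RA.

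The FKBP genes spanned the widest range outside hspb1. fkbp5, an HSP90 cochaperone that steroid hormones induce in mammals, was at 148.8, 412.4 and 171.1 with DMSO and at 386.3, 422.0 and 318.5 with RA. In clutches 1 and 4 the RA pool was 2.60- and 1.86-fold the DMSO pool, and in clutch 3 the fold was 1.02. The DMSO pool of clutch 3 was as high as the RA pools, so the groups overlapped, and the fold of 1.70 had an interval of 0.861 to 3.37 (limma adjusted p = 0.70). fkbp9, an ER isomerase, lay at the opposite end with 215.9, 157.8 and 167.9 in DMSO pools and 97.3, 113.3 and 132.1 in RA pools. All RA pools were below all DMSO pools, DMSO was above RA by 1.58-fold, and the limma adjusted p was 0.418. The ER isomerase fkbp2 also had groups that did not overlap, at 662.0, 598.8 and 664.8 with DMSO and 531.6, 527.1 and 578.2 with RA (log2 difference -0.23 ± 0.15 SE). Groups lower with RA and without overlap were thus seen for 2 of the 10 FKBP genes, beside 10% of all genes. fkbp4, the steroid receptor cochaperone related to fkbp5, differed by -0.08 ± 0.16 (SE, log2). fkbp1aa, the target of the drug FK506, was at 1496, 1383 and 1387 with DMSO and 1408, 1429 and 1326 with RA.

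Among the remaining cochaperones, ahsa1b, an activator of the HSP90 ATPase, was at 720.2 in the DMSO pool of clutch 1 and between 334.8 and 413.1 in the other 5 pools (log2 difference -0.41 ± 0.27 SE, and -0.13 without that pool). ahsa1a differed by 0.25 ± 0.22. bag6 followed ahsa1b in form, with 165.7 in that DMSO pool and 63.6 to 94.1 in the others, and bag4 differed by 0.00 ± 0.25. Over the 75 members above background, the DMSO pool of clutch 1 was the lowest of the DMSO pools for 36 and the highest for 24. Over all 6320 genes above background, that pool was the lowest for 2707 and the highest for 2454. hsf1, the main regulator of the cytosolic heat shock response, and hsf5 were below background in every pool, so their levels were not measurable here. hsf2 was at 302.6, 403.1 and 319.4 with DMSO and at 396.3, 406.5 and 352.3 with RA (log2 difference 0.18 ± 0.18 SE).

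**Figure D4:**
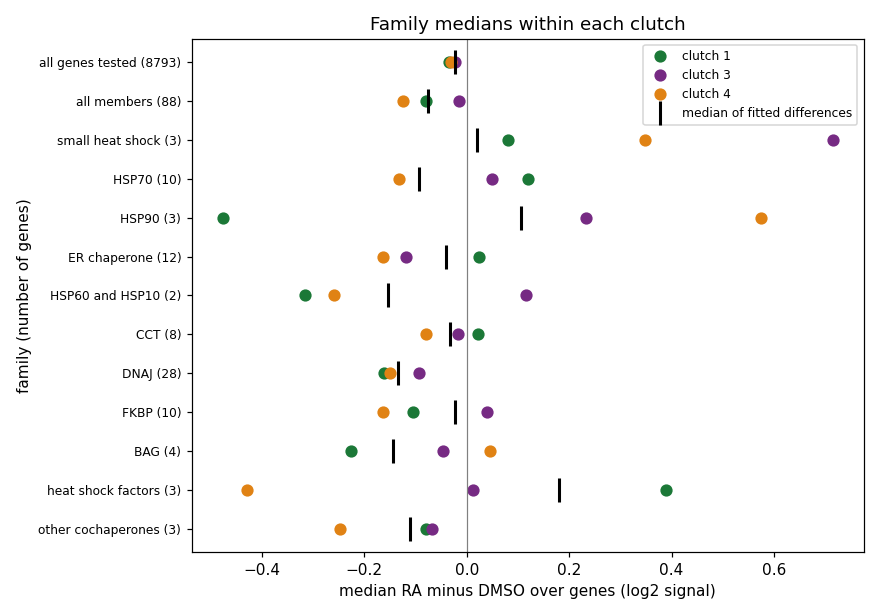
Median RA minus DMSO difference (log2 signal) of each family within clutches 1, 3 and 4 (coloured points), with the median of the fitted differences as a black bar, and the number of genes in parentheses. All 8793 genes lie near 0 in each clutch, and DNAJ medians lie between -0.16 and -0.09. HSP90 medians, over 3 genes, spread from -0.48 to 0.57, and both ends are values of hsp90aa1.1.

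Other genes of the same pathways were counted from lists of the known partners and responses. Of 22 measured partners of HSP70 and HSP90 outside the symbol rule, none passed the threshold or had an unadjusted limma p under 0.05, and their median was -0.04. The highest and lowest among those above background in all pools were cdc37l1 (0.39 ± 0.34 SE, log2) and ptges3b (-0.42 ± 0.18), relatives of the HSP90 cochaperones CDC37 and p23. Prefoldin, which hands actin and tubulin to CCT, had 5 genes measured and none past the threshold or with an unadjusted limma p under 0.05, from vbp1 at -0.43 ± 0.20 to pfdn5 at 0.07 ± 0.19. Of 14 genes listed for mitochondrial import and folding, none passed or had an unadjusted limma p under 0.05. Their median was -0.22, with extremes at timm13 (-0.42 ± 0.25) and afg3l2 (0.29 ± 0.23). This list also held lonp2, a peroxisomal protease, and trap1, which was counted among the 22 partners too. Of 9 cyclophilins, the second family of prolyl isomerases, none passed. An unadjusted limma p under 0.05 was seen for 1 (9.66% of all genes), ppil3 at -0.60 ± 0.20. The RA pools of ppil3, at 55.6, 56.0 and 52.4, were all below its DMSO pools, at 104.4, 73.3 and 75.0, and nktr had the highest estimate of the list, 0.41 ± 0.31. Groups lower with RA and without overlap were seen for 3 of the 9 cyclophilins, 1 of these under background in every pool. They were seen for 3 of the 22 partners, 2 of the 14 on the mitochondrial list and no prefoldin gene (10% of all genes). No gene of these lists had every RA pool above every DMSO pool (7.18% of all genes).

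The unfolded protein response of the ER had 26 measured genes. None passed the threshold, 3 had an unadjusted limma p under 0.05 (9.66% of all genes did), and the median was -0.01. ppp1r15a, which ends the translational block of the stress response, was at 89.9, 96.2 and 136.6 with DMSO and at 253.6, 132.9 and 233.6 with RA (fold 1.88, limma adjusted p = 0.472). asns, the asparagine synthetase that ATF4 switches on, went the other way, at 179.3, 137.8 and 164.8 with DMSO and 68.2, 101.7 and 103.1 with RA (limma adjusted p = 0.327). The asns pools did not overlap, and the ppp1r15a pools did. hyou1, the third gene with such a p, was at 185.8, 171.9 and 169.0 with DMSO and at 132.4, 126.5 and 125.5 with RA (limma adjusted p = 0.443). RA pools lay all above DMSO pools for 2 of the 26 genes (7.18% of all genes) and all below for 5 (10% of all genes).

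Cytosolic stress genes that often rise beside heat shock genes had a median log2 difference of 0.24. Of 20 measured, 1 passed (0.967% of all genes did), and 7 had an unadjusted limma p under 0.05 (9.66% of all genes). Among these 7, txnrd3 was lower with RA. The higher ones were fosab, jun, junbb, gadd45ga, gadd45ba and gadd45bb, the last above background in only 1 pool. The rest of the list, with ubb, sqstm1, prdx1 and nqo1, had no such p. RA pools lay all above DMSO pools for 7 (7.18% of all genes) and all below for 2, txnrd3 and mt, a metallothionein under background in every pool (10% of all genes). fosab, an immediate early gene whose product is part of the AP-1 transcription factor, rose from 28.0, 24.5 and 18.2 with DMSO to 106.6, 135.4 and 123.0 with RA (fold 5.23, interval 3.61 to 7.57, limma adjusted p = 0.0128, and 0.118 with clutch as a block). It was on the study's list from these arrays as well. jun, the gene of the AP-1 partner, had non-overlapping pools at 136.8, 166.6 and 126.5 with DMSO and 264.9, 293.7 and 239.0 with RA, and did not pass (limma adjusted p = 0.171). The lowest of the list was txnrd3, a thioredoxin reductase (-0.50 ± 0.20 SE, log2).

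For 12 of the 88 members more than 1 probe set was measured. Their 13 further probe sets included none past the threshold.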

How the data were processed

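Whole-eye RNA of 6 pools, amplified from 80 ng, was measured on Affymetrix zebrafish genome arrays. The deposited values are linear signal intensities, and per the file values each array was scaled to a mean of 125 after trimming 2% at each end. The study's methods describe RMA values, and the deposited signals are not on that scale. The software behind them is not given in the sources used here, and background subtraction and scaling by array can compress or inflate low signals. Of 15617 probe sets, 62 controls were left out. Gene symbols came from the platform annotation: 10802 probe sets had 1 symbol, 135 several and 4618 none, and all 88 member symbols were found in the current RefSeq annotation. The log2 signals were compared with limma 3.58.1 in R 4.3.3 (lmFit and eBayes, group only, two-sided), with Benjamini-Hochberg adjustment over 15555 probe sets and the methods' 10% false discovery rate. The methods' SAM test was not run. Samples were grouped by title, with 3 pools per group, and this number limits the precision: the median SE was 0.21 on the log2 scale above background. The script was tested on simulated data.

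The number in the sample title was used as the clutch number and pairs a DMSO with an RA pool. The study divided each clutch between the treatments, but the titles do not say that the number is the clutch. Deviations from the group means correlated at 0.18, 0.41 and 0.30 within clutches 1, 3 and 4 over 10816 probe sets. A gene was named if it passed the test, belonged to the small heat shock, HSP70, HSP90 or ER families and was above background, or had the brightest, highest or lowest value of another family or list. Outside this rule fell dnajc9, dnajc10, dnajb1a, dnajb1b, fkbp2, fkbp4, hsf1, hsf5, pdia2, cryaba, hyou1 and the marker genes. So did jun, junbb, gadd45ga, gadd45ba, gadd45bb, ubb, sqstm1, prdx1, nqo1, mt, lonp2 and trap1. The second probe set of hsp90aa1.2 and the probe sets with several symbols were outside it too. All of these were chosen after their values were seen. The members, families and lists were chosen with earlier results of these data known. Alternatives varied the block, normalization, offset, filter, variance model, probe sets, threshold and arrays.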

Additional observations from a re-analysis of the deposited data

How the results depend on the processing

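The number of members past the threshold, 1 by limma, was 0 with the replicate block that pairs pools by clutch (5 members with an unadjusted p under 0.05) and 0 at a 5% false discovery rate, and it ranged from 0 to 1 when single arrays were left out. It stayed at 1 under quantile normalization, median centring, 16 added to the signal, a filter on background, a variance trend, array weights, averaging over all probe sets of a gene, a 20% false discovery rate and without the genes matched by spelling, and that member was hspb1 each time, with log2 differences of 1.38 to 1.64 and limma adjusted p from 0.00478 to 0.0584. Leaving out single arrays gave medians of -0.07 to -0.03 for all members, -0.06 to 0.23 for small heat shock genes, -0.11 to 0.14 for HSP70, 0.04 to 0.35 for HSP90 and -0.19 to 0.017 for ER chaperones. The HSP70 median was above 0 without the DMSO pool of clutch 4 (0.14), and the ER median was lowest without the DMSO pool of clutch 1 (-0.19). The filter on background moved the small heat shock median from 0.02 to 0.81, since hspb8 is then left out. Over all 15555 probe sets 131 passed, against 45 with the replicate block, 232 with 16 added, 274 with the variance trend, 593 with array weights, 272 of 10879 with the filter and 52 to 117 without single arrays. cryaa passed in none of the fits without 1 array, and fosab passed in all of them. Of 782 values for the 56 named genes under up to 14 alternatives each, the 14 for hspb1, cryaa and fosab that lost significance were the only ones to change side of the threshold. No value larger than its standard error changed sign, and 48 values of genes whose estimate was within its standard error did. Signals near background limit hspb8, hspa1b, hspa12a, hsf1 and hsf5. The lowest DMSO pools of hspa8b and hsp90aa1.1, at 13.9 and 14.0, were also near it.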
